A study of Danio rerio with 30 samples.

Results

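The nuclear genes of oxidative phosphorylation were followed in the spleen of adult zebrafish. They were taken from the gene table by name: every row whose symbol, in any case, began with ndufa, ndufb, ndufc, ndufs, ndufv, uqcr, cox4 to cox8 or atp5, or was sdha, sdhb, sdhc, sdhd or cyc1. The rule gave 105 of 31901 genes: 42 of complex I, 8 complex I assembly factors (the NDUFAF genes), 5 of complex II, 9 of complex III, 21 of complex IV, 18 of complex V and 2 inhibitors of complex V. The filter on low counts kept 101 of them among 17841 tested genes. The 4 rows that did not pass were ndufa4l2b with 36 counts over all 30 libraries, cox4i1l with 81, a second SDHD row (ENSDARG00000055712) with 104 and NDUFS1, a core subunit of complex I, with 1. How reads were assigned to genes is not given, so a row with few counts need not mean low expression.

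Oxidative phosphorylation takes place in the inner mitochondrial membrane. Complexes I and II pass electrons from NADH and succinate to ubiquinone, complex III passes them to cytochrome c and complex IV to oxygen, and complex V, the ATP synthase, uses the resulting proton gradient to make ATP. Complexes I, III, IV and V combine subunits encoded in the nucleus with subunits encoded in mitochondrial DNA, whereas complex II is encoded in the nucleus alone. In immune cells the balance between this pathway and glycolysis is known to shift on activation, and in fish, unlike mammals, erythrocytes keep a nucleus and mitochondria.

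Polyadenylated spleen RNA of 30 fish of the AB strain, 100 days old, was sequenced in 6 groups of 5 libraries. Embryos and larvae had been kept at 24, 28 or 32 °C, and adults were held at 28 °C. At each incubation temperature the groups were control fish and fish given lipopolysaccharide (LPS), the Gram-negative cell wall component, from Pseudomonas aeruginosa, as 2 µl of 50 mg/ml into the body cavity 12 h before sampling. The labels do not say what control fish received or the sex of any fish, and p-values measure the spread between these numbered samples.

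Libraries held 14840723 to 23401031 counts. All 18 erythroid markers were tested, and their sum ran from 42840 to 159000 CPM (a gene's counts scaled to a fixed library total) over the 30 libraries. Of the markers of B and plasma cells, 12 of 12 were tested, with sums of 234 to 916 CPM. Libraries that stood apart were 24 °C control replicate 4, whose ovary markers summed to 10460 CPM while the highest sum in the other 5 groups was 44.0, 32 °C control replicate 8, whose liver markers summed to 8705 CPM, and 32 °C control replicate 2, with counts on 28134 genes against 19367 to 22887 elsewhere. Without these 3 libraries, 31 of the 101 log2 fold changes with LPS moved by over 1.5 times or changed sign at 24 °C and 82 did at 32 °C, as did 39 in 24 against 28 °C controls and 84 in 32 against 28 °C controls. OXPHOS medians without them, or their difference from the median of all genes, follow with the comparisons that use these libraries. Gene values follow where the text turns on them. Acinar pancreas markers varied from 209 to 47390 CPM across all groups.

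Genes of every OXPHOS class were detected in all 6 groups. No single gene passed the threshold (edgeR adjusted p under 0.05) with LPS or with temperature, and the counts at an unadjusted p and by other tools follow. Levels of most of these genes were high or low together from fish to fish. Their mean level was 5.25 ± 0.28 (SD, n = 5) on the log2 CPM scale in 24 °C controls and 5.48 ± 0.12 in 24 °C LPS fish. It was 5.41 ± 0.18 in 28 °C controls and 5.35 ± 0.18 in 28 °C LPS fish, and 5.22 ± 0.32 in 32 °C controls and 5.46 ± 0.26 in 32 °C LPS fish. The pooled SD within groups was 0.233, about as large as the differences between groups. The highest library was 32 °C LPS replicate 1, at 5.74, and the lowest was 32 °C control replicate 2, at 4.715. In spleen RNA, which mixes many cell types, fewer cells of a type and less RNA per cell cannot be told apart.

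**Figure D1:**
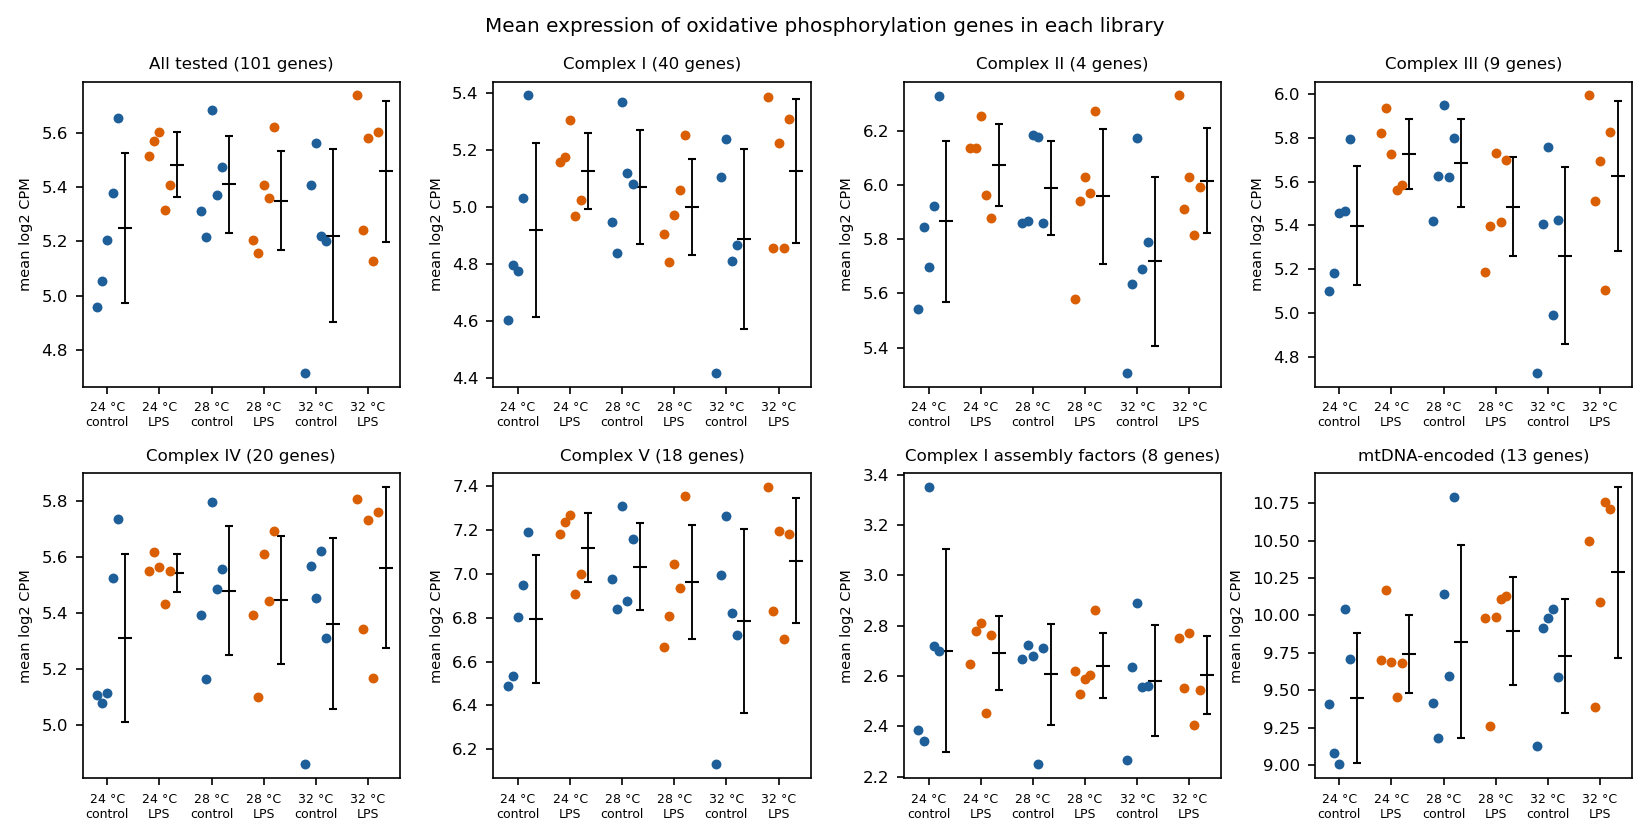
Mean log2 CPM of each gene class in each library, with 1 dot per library, blue for control and orange for LPS, in 6 groups of 5, and a black mark with bars for the mean and SD. Vertical scales differ between panels and do not start at 0. All 101 tested genes averaged 5.25 in 24 °C controls and 5.48 in 24 °C LPS fish, and the groups overlap in every panel.

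Taken as a share of all counts, the 105 genes made up 0.719% ± 0.145 (SD, n = 5) of the library in 24 °C controls, 0.886% ± 0.112 in 24 °C LPS fish, 0.844% ± 0.0892 in 28 °C controls, 0.680% ± 0.165 in 28 °C LPS fish, 0.692% ± 0.189 in 32 °C controls and 0.765% ± 0.213 in 32 °C LPS fish. The lowest share of any library was 0.448% and the highest 1.02%, and the ranges of all 6 groups overlapped. Shares of all counts also follow shifts common to most genes. With total-count scaling, the median log2 fold change with LPS at 28 °C was -0.238 over all tested genes and -0.309 over the OXPHOS genes.

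The first comparison asked whether LPS altered these genes in fish of each incubation temperature. At 24 °C, 86 of the 101 genes had a log2 fold change above 0, against 7262 of all 17841 genes, and their median was 0.235 where that of all genes was -0.115. None was called (0 of 101). Over all genes 3 were called, or 0.0168%. At an unadjusted p under 0.05, 8 of the 101 were higher (7.92%) and 0 lower, while 16.9% of all tested genes passed, 5.64% higher and 11.2% lower. DESeq2 and limma voom also called 0 of the 101, here and in every other contrast below except 32 against 28 °C controls. Set against the median of all genes, the OXPHOS median was 0.35 higher. This difference was 0.233 without the 3 libraries that stood apart, 0.225 without 24 °C control replicate 4 alone and 0.49 without 24 °C control replicate 8.

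At 28 °C the median was -0.05, 37 of the 101 genes lay above 0 and the median of all genes was 0.02. Again 0 were called, against 2 over all genes (0.0112%). Of the 101, 1 was higher and 1 lower at an unadjusted p under 0.05, where 8.19% of all genes passed. At 32 °C the median was 0.26, with 90 of 101 genes above 0 and 8465 of all genes above 0. There too 0 were called, against 1 over all genes (0.00561%), and 5 were higher and 1 lower at an unadjusted p under 0.05, beside 7.37% of all genes. Leaving out the 3 libraries that stood apart made the 32 °C median 0.109, less than the 0.259 with them, and 81 of 101 genes were above 0, with 0 of them at an unadjusted p under 0.05. Complex III then had a median of 0.148.

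Averaged over the temperatures, 87 of the 101 genes were above 0 against 7507 of all genes, with a median of 0.15. The call count was 0 (2 over all genes, 0.0112%), and 11 genes were higher and 0 lower at an unadjusted p under 0.05, or 10.9% beside 6.03% of all genes (1.75% higher and 4.28% lower). With those 3 left out, this median was 0.0826. It was 0.0594 with total-count scaling and 0.252 with the replicate block, a fit with replicate numbers as a factor. In that fit 32 °C control replicates 6 and 10, whose numbers no other group has, carry no weight in the group means. For the 91 tested genes with a mean of at least 5 CPM, a single gene's log2 fold change had a median SE of 0.201 in each single-temperature contrast. In the average over temperatures the median SE was 0.116. No gene with a change of the size of these medians was called at this spread between fish.

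**Figure D2:**
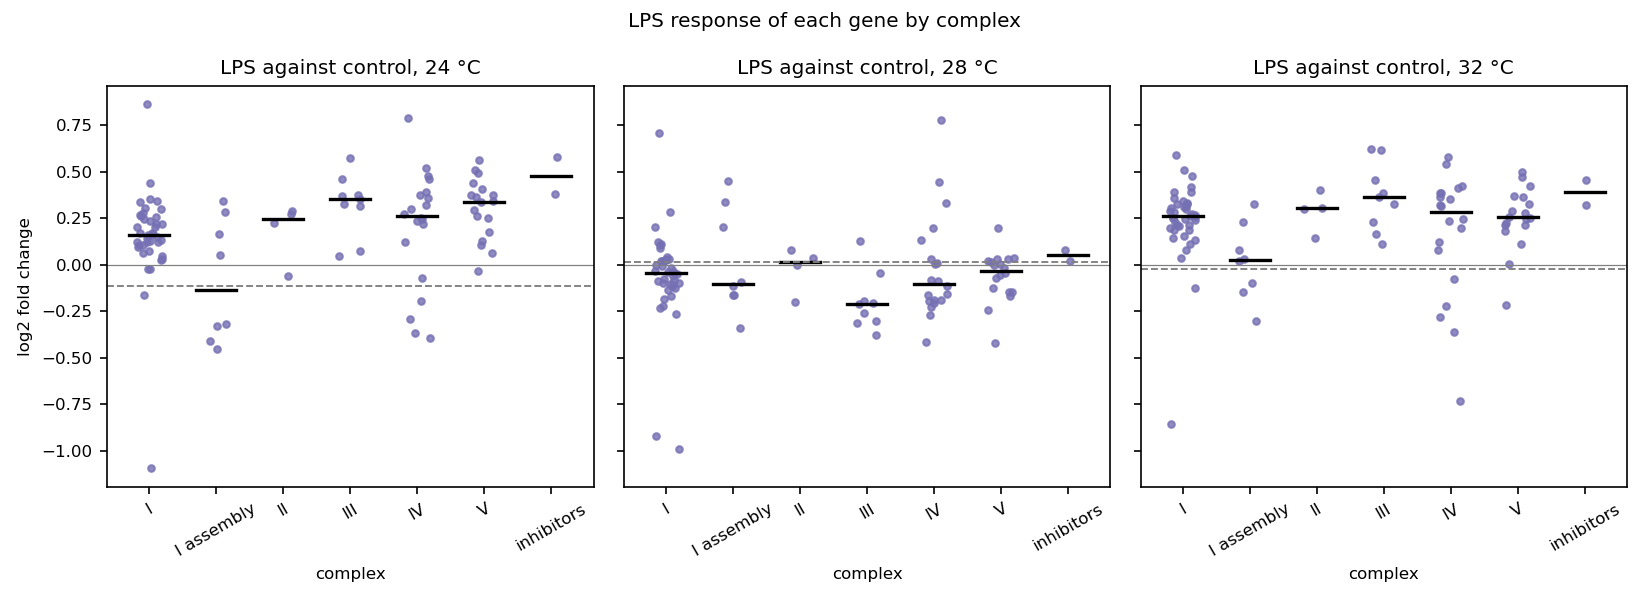
Log2 fold change of each tested gene, LPS against control, at 24, 28 and 32 °C, by complex, with black bars for class medians, a solid grey line at 0 and a dashed line at the median of all 17841 tested genes. Complex III lay highest at 24 and 32 °C among the 5 complexes, with medians of 0.355 and 0.366, and lowest at 28 °C, with -0.209.

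Markers of blood cells were read in the same contrasts. The 18 erythroid markers had a median log2 fold change of -0.612 with LPS at 24 °C (0 of 18 above 0), 0.611 at 28 °C (18 of 18) and 0.337 at 32 °C (17 of 18). Their sums spanned 59390 to 116600 CPM in 24 °C controls and 48010 to 91570 in 24 °C LPS fish, 43890 to 84730 and 62610 to 159000 at 28 °C, and 42840 to 92220 and 45680 to 115000 at 32 °C. The 8 neutrophil markers had medians of 0.553, -0.46 and 0.528 at 24, 28 and 32 °C. Their sums spanned 521 to 1060 CPM and 980 to 1708 at 24 °C, 1194 to 1737 and 383 to 1279 at 28 °C, and 481 to 1085 and 472 to 1204 at 32 °C, controls first. The sums of 18 macrophage markers did not overlap at 24 °C, at 3025 to 4588 CPM in controls and 4726 to 7545 in LPS fish, and spanned 3443 to 5833 and 2163 to 6625 at 28 °C, and 3038 to 7257 and 2327 to 5592 at 32 °C. The 15 of them that were tested had medians of 0.0894, 0.133 and -0.256. At 28 °C the thrombocyte sums, on plain totals, were 1074 to 2167 CPM in controls and 790.1 to 1031 in LPS fish, without overlap. The highest of these LPS sums was in replicate 4, whose TMM scaling factor was 0.7298, against 0.9154 to 1.251 in 28 °C controls. On the TMM scale of the fold changes these groups therefore overlap. The thrombocyte sums overlapped at 24 °C (619 to 1499 and 736 to 1195 CPM) and at 32 °C (727 to 1364 and 959 to 1357), controls first. All marker sums here use plain totals, and whether the 24 °C macrophage sums stay apart on the TMM scale was not tested. No erythroid or neutrophil marker was at 0 in a whole group, the macrophage markers SPIC and MFAP4 were at 0 in some groups, and none of these markers was called in these contrasts. Their part in the OXPHOS values was not tested.

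Complex I is the largest of the assemblies, with 40 tested genes. Its medians were 0.16 at 24 °C (36 of 40 above 0), -0.04 at 28 °C (14 of 40) and 0.26 at 32 °C (38 of 40), and 0 genes were called in any of them. The 6 tested core subunits, which carry the flavin and iron-sulphur centres and the ubiquinone site, had medians of 0.07, -0.03 and 0.19. The 31 accessory subunits had medians of 0.17, -0.05 and 0.27. NDUFA10, an accessory subunit, had the smallest p of complex I at 24 °C and in the joint test of the 3 responses.

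NDUFA10 was at 64.8, 71.4, 63.1, 80.9 and 92.0 CPM in 24 °C controls and at 97.5, 85.1, 109, 86.8 and 81.1 in 24 °C LPS fish. It was at 88.6, 83.5, 94.0, 88.8 and 73.3 CPM in 28 °C controls and at 57.5, 80.6, 71.8, 63.9 and 82.8 in 28 °C LPS fish. In 32 °C controls it was at 46.9, 61.3, 84.9, 56.3 and 62.7 CPM, and in 32 °C LPS fish at 87.7, 82.5, 75.2, 56.9 and 81.4. LPS values were the higher on average at 24 and 32 °C and the lower at 28 °C, and the groups overlapped at each temperature. The log2 fold changes were 0.30 ± 0.15 (SE), -0.26 ± 0.15 and 0.30 ± 0.15 in that order, with edgeR adjusted p values of 0.304, 0.658 and 0.686. The 32 °C value was 0.14 without the 3 libraries that stood apart.

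At 32 °C the smallest p of complex I was that of ndufa11, an accessory subunit of the membrane arm. It was at 15.4, 26.0, 30.1, 20.7 and 23.8 CPM in controls and at 36.8, 22.6, 35.3, 25.7 and 41.15 in LPS fish, with overlap, a log2 fold change of 0.48 ± 0.22 (SE) and an edgeR adjusted p of 0.640. NDUFAB1, the mitochondrial acyl carrier protein, differed by 0.36 ± 0.17 in the same contrast (edgeR adjusted p = 0.654). Without the 3 libraries that stood apart, ndufa11 had 0.276 and NDUFAB1 0.139. NDUFA4, assigned in mammals to complex IV rather than complex I, had the most counts of the class. It was at 92.6, 127, 107, 126 and 231 CPM in 24 °C controls, where replicate 8 was far above the others, and at 154, 137, 177, 136 and 139 in 24 °C LPS fish.

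The ndufa4 paralog ndufa4b varied most among complex I genes with a mean of at least 5 CPM. It was at 2.90, 5.13, 2.16, 5.98 and 18.1 CPM in 24 °C controls and at 21.3, 12.0, 10.7, 5.88 and 12.5 in 24 °C LPS fish. It was at 7.15, 9.83, 19.2, 8.68 and 18.9 CPM in 28 °C controls and at 3.45, 5.92, 7.585, 4.99 and 10.1 in 28 °C LPS fish. In 32 °C controls it was at 3.74, 8.58, 10.4, 3.12 and 6.26 CPM, and in 32 °C LPS fish at 14.6, 7.13, 9.48, 6.40 and 10.8. LPS fish were on average higher at 24 and 32 °C and lower at 28 °C, with overlap each time, and 24 °C control replicate 8 was the one control above 6 CPM at that temperature (5.98 being the next).

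The log2 fold changes of ndufa4b were 0.86 ± 0.46 (SE), -0.99 ± 0.46 and 0.59 ± 0.46, with edgeR adjusted p values of 0.338, 0.591 and 0.808. The 32 °C value was 0.201 without the 3 libraries that stood apart. Without 24 °C control replicate 8 the 24 °C fold change became 1.62 (edgeR adjusted p = 0.0497), a call that rests on leaving out that library. The difference between the 24 and 28 °C responses was then 2.61 (edgeR adjusted p = 0.0378), and with all libraries 1.85 ± 0.65 (SE; edgeR adjusted p = 0.117). The tested gene of the class with the lowest mean CPM, ndufa9b, was at 0 to 1.47 CPM, and no difference was detectable at this depth.

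For the complex I assembly factors, the medians were -0.134 at 24 °C (4 of 8 above 0), -0.102 at 28 °C (3 of 8) and 0.027 at 32 °C (5 of 8). NDUFAF6 was at 2.36, 3.02, 6.99, 2.91 and 3.28 CPM in 24 °C controls and at 3.02, 2.89, 2.84, 2.08 and 2.72 in 24 °C LPS fish. It was at 2.58, 3.80, 2.635, 1.99 and 2.25 CPM in 28 °C controls and at 3.16, 2.98, 3.27, 4.43 and 4.33 in 28 °C LPS fish. Control replicate 4, the library with ovary transcripts, was the highest 24 °C control for NDUFAF6 and also for NDUFAF2, NDUFAF4 and NDUFAF7. The log2 fold changes of NDUFAF6 were -0.45 ± 0.28 (SE) at 24 °C, 0.45 ± 0.28 at 28 °C and 0.02 ± 0.28 at 32 °C (edgeR adjusted p = 0.415, 0.682 and 0.991). Without control replicate 4 the 24 °C value was -0.0205 (edgeR adjusted p = 0.983). Without the 3 libraries that stood apart, NDUFAF7 went from -0.329 to -0.141 at 24 °C, NDUFAF2 from -0.317 to 0.182 and NDUFAF4 from -0.412 to 0.277, and the class median was 0.174.

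NDUFAF8 had the smallest p of the assembly factors at 32 °C. It was at 1.96, 2.79, 3.18, 2.48 and 2.69 CPM in 32 °C controls and at 3.27, 3.015, 3.52, 3.63 and 3.04 in 32 °C LPS fish. The ranges overlapped at a single control, replicate 6, and the log2 fold change was 0.33 ± 0.28 (SE; edgeR adjusted p = 0.832). NDUFAF3, with the most counts of the class, was at 14.85 to 50.4 CPM, and NDUFAF7, which methylates a core subunit of complex I in mammals, at 1.42 to 4.79.

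Complex II, which also serves the citric acid cycle, had medians of 0.25, 0.02 and 0.30 at 24, 28 and 32 °C. SDHA, its flavoprotein, was at 94.9, 110, 88.7, 105 and 129 CPM in 24 °C controls and at 135, 117, 134, 124.5 and 105 in 24 °C LPS fish. It was at 114, 112, 105, 119 and 79.1 CPM in 28 °C controls and at 87.1, 127, 113, 114 and 118.5 in 28 °C LPS fish. In 32 °C controls it was at 75.0, 80.3, 104, 77.4 and 92.8 CPM, and in 32 °C LPS fish at 131, 134, 97.3, 98.0 and 107.5.

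At 32 °C only control replicate 6 reached into the range of the LPS fish. The log2 fold change was 0.40 ± 0.14 (SE), the smallest p of any of the 101 genes at that temperature (edgeR adjusted p = 0.525). Without the 3 libraries that stood apart it was 0.295 (edgeR adjusted p = 1). At 24 and 28 °C it was 0.22 ± 0.14 and 0.08 ± 0.14 (edgeR adjusted p = 0.417 and 0.903). SDHD (ENSDARG00000030139), a membrane anchor, differed by 0.27 ± 0.17, -0.20 ± 0.17 and 0.31 ± 0.17 (edgeR adjusted p = 0.423, 0.762 and 0.726).

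Complex III had the highest class medians of the 5 complexes at 24 and 32 °C and the lowest at 28 °C. With LPS, 9 of 9 genes were above 0 at 24 °C, 1 of 9 at 28 °C and 9 of 9 at 32 °C, with medians of 0.355, -0.209 and 0.366. Each contrast used its own controls. UQCRH, the hinge protein that helps cytochrome c1 to meet cytochrome c, was at 53.65, 61.9, 57.0, 67.3 and 73.0 CPM in 24 °C controls and at 97.0, 102, 117, 71.4 and 78.8 in 24 °C LPS fish. Among the LPS fish only replicate 4 lay within the control range. Its log2 fold change of 0.57 ± 0.19 (SE) had the smallest p of the 101 genes in this contrast (edgeR adjusted p = 0.135).

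UQCRH was at 70.2, 76.3, 107, 67.1 and 93.45 CPM in 28 °C controls and at 64.1, 68.8, 68.9, 63.1 and 97.4 in 28 °C LPS fish. In 32 °C controls it was at 43.6, 72.6, 96.5, 72.9 and 68.5 CPM, and in 32 °C LPS fish at 111.5, 73.2, 94.2, 64.7 and 99.98. Both pairs overlapped, with log2 fold changes of -0.19 ± 0.19 (SE) and 0.32 ± 0.19 (edgeR adjusted p = 0.791 and 0.733).

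Cytochrome c1, CYC1, was at 69.15, 71.8, 85.5, 88.1 and 106 CPM in 24 °C controls and at 122, 114, 118, 94.96 and 94.65 in 24 °C LPS fish. It was at 102, 114, 126, 105 and 94.4 CPM in 28 °C controls and at 53.2, 96.2, 96.2, 62.8 and 107 in 28 °C LPS fish. In 32 °C controls it was at 44.6, 74.6, 99.7, 53.7 and 85.45 CPM, and in 32 °C LPS fish at 127.5, 101, 90.1, 73.0 and 99.2. LPS fish thus lay higher on average at 24 and 32 °C and lower at 28 °C, where replicates 1 and 4 were below every control, and each pair of groups overlapped.

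The log2 fold changes of CYC1 were 0.37 ± 0.20 (SE), -0.38 ± 0.20 and 0.45 ± 0.20, with edgeR adjusted p values of 0.345, 0.633 and 0.625. At 32 °C, CYC1 had 0.178 when the 3 libraries were left out and 0.882 under the replicate block. UQCRFS1, the Rieske iron-sulphur protein, had 0.32 ± 0.19, -0.30 ± 0.19 and 0.39 ± 0.19 (edgeR adjusted p = 0.401, 0.688 and 0.683). UQCR10, a small subunit, had 0.37 ± 0.29, -0.31 ± 0.29 and 0.62 ± 0.29 (edgeR adjusted p = 0.520, 0.779 and 0.659), with a range of 29.5 to 162 CPM over all libraries. The 32 °C values without the 3 libraries were 0.119 for UQCRFS1 and 0.279 for UQCR10. The UQCRB row held 0.173 to 2.09 CPM, and no difference was detectable at these counts. UQCRQ, of the same complex, had a mean of 58.8 CPM. Whether reads of UQCRB lie on another row was not tested.

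Complex IV joins 3 subunits encoded in mitochondrial DNA with nuclear ones, several of which have tissue isoforms. Medians of its 20 tested genes were 0.261, -0.102 and 0.281 at 24, 28 and 32 °C. The gene cox6b1 was at 31.9, 19.9, 23.9, 47.8 and 40.05 CPM in 24 °C controls and at 44.1, 70.2, 65.8, 40.9 and 61.9 in 24 °C LPS fish. Control replicate 5 reached into the LPS range, and the other 4 controls were below it. The log2 fold change was 0.79 ± 0.30 (SE; edgeR adjusted p = 0.182). At 28 and 32 °C it was -0.27 ± 0.30 and 0.54 ± 0.30 (edgeR adjusted p = 0.818 and 0.720). The 32 °C value was 0.353 without the 3 libraries that stood apart.

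The 2 genes named cox6a1 had fold changes of opposite sign at 24 and 28 °C. COX6A1 (ENSDARG00000054588) was at 64.4, 84.5, 38.9, 80.7 and 151 CPM in 24 °C controls and at 62.0, 69.4, 39.1, 70.5 and 78.7 in 24 °C LPS fish. It was at 35.25, 33.9, 66.5, 71.65 and 54.4 CPM in 28 °C controls and at 130, 36.1, 127, 99.03 and 57.0 in 28 °C LPS fish. In 32 °C controls it was at 52.05, 72.5, 63.2, 64.7 and 46.4 CPM, and in 32 °C LPS fish at 91.5, 67.15, 74.9, 109.5 and 104. Replicates 1, 3 and 4 of the 28 °C LPS fish exceeded every 28 °C control.

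Its log2 fold changes were -0.39 ± 0.31 (SE), 0.78 ± 0.31 and 0.58 ± 0.31, with edgeR adjusted p values of 0.534, 0.510 and 0.716, and that at 28 °C had the smallest p of the 101 genes there. The other copy, cox6a1 (ENSDARG00000022438), had 0.52 ± 0.22, -0.16 ± 0.22 and 0.39 ± 0.22 (edgeR adjusted p = 0.237, 0.870 and 0.729).

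COX4I2, in mammals an isoform of subunit 4 linked to low oxygen and found in lung, was the gene with the lowest p of complex IV at 32 °C. It was at 27.75, 30.8, 15.3, 51.0 and 13.05 CPM in 32 °C controls and at 14.4, 13.7, 14.9, 15.95 and 24.0 in 32 °C LPS fish. Control replicates 2, 3 and 8 were above every LPS fish, replicate 6 lay within the LPS range and replicate 10 was below it. The log2 fold change was -0.73 ± 0.34 (SE; edgeR adjusted p = 0.654), and without the 3 libraries that stood apart, among which are control replicates 2 and 8, it was -0.252 (edgeR adjusted p = 1).

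COX4I1, the common isoform of subunit 4 and the gene of complex IV with the most counts, was at 158.6, 151.8, 159.7, 203.4 and 240.7 CPM in 24 °C controls and at 222.2, 224, 238.1, 203.8 and 215 in 24 °C LPS fish. The groups overlapped through control replicate 8, and the log2 fold change was 0.27 ± 0.17 (SE; edgeR adjusted p = 0.411). It was 0.01 ± 0.17 at 28 °C and 0.08 ± 0.17 at 32 °C (edgeR adjusted p = 0.993 and 0.946).

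The widest range among genes with a mean of at least 5 CPM was that of cox7a1, in mammals the heart and muscle isoform of subunit 7a. In 28 °C controls it was at 5.86, 1.36, 4.58, 19.0 and 6.58 CPM, and in 28 °C LPS fish at 17.2, 1.16, 9.02, 9.05 and 1.86. Both groups held high and low fish, and the log2 fold change was 0.03 ± 0.64 (SE; edgeR adjusted p = 0.992). COX5B (ENSDARG00000068738) spanned 7.61 to 47.7 CPM over all libraries, with log2 fold changes of -0.29 ± 0.42, 0.33 ± 0.42 and 0.41 ± 0.42 at 24, 28 and 32 °C (edgeR adjusted p = 0.754, 0.852 and 0.865). COX5B (ENSDARG00000113254) had the fewest counts of the tested complex IV genes, at 0 to 1.07 CPM.

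Complex V had medians of 0.34, -0.03 and 0.26 with LPS at 24, 28 and 32 °C, and 17 of its 18 genes were above 0 at 24 and at 32 °C. Among its parts at 24 °C, the small membrane subunits had a median of 0.39 (6 of 6 above 0), the c-ring genes 0.34 (3 of 3), the peripheral stalk 0.27 (4 of 4) and the catalytic F1 head 0.26 (4 of 5). ATP5F1B, the catalytic beta subunit and the gene of the class with the most counts, was at 565, 625, 800.5, 621.5 and 712 CPM in 24 °C controls and at 769, 654.5, 755.5, 687 and 612 in 24 °C LPS fish, with a log2 fold change of 0.07 ± 0.15 (SE; edgeR adjusted p = 0.864). Its highest 24 °C value was in control replicate 4, the library with ovary transcripts, as was that of ATP5F1A.

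The gene atp5mj, a small proteolipid of the synthase dimer interface, was at 58.6, 46.0, 66.85, 81.6 and 78.4 CPM in 24 °C controls and at 86.4, 113, 94.1, 82.2 and 91.3 in 24 °C LPS fish. These 2 groups did not overlap, which held for 1 of the 101 genes in this direction and for 1.96% of all genes. Its log2 fold change was 0.49 ± 0.21 (SE; edgeR adjusted p = 0.246), and it was -0.05 ± 0.21 at 28 °C and 0.37 ± 0.21 at 32 °C (edgeR adjusted p = 0.965 and 0.733). The neighbour atp5md, a dimer-linked subunit, was at 33.1, 39.6, 42.5, 45.8 and 58.5 CPM in 24 °C controls and at 75.9, 74.3, 75.4, 44.8 and 54.1 in 24 °C LPS fish. It overlapped through LPS replicates 4 and 8 and differed by 0.56 ± 0.20 (edgeR adjusted p = 0.164).

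The c-ring gene atp5mc1 ran from 38.4 CPM in 32 °C control replicate 2 to 227 in 32 °C control replicate 6. Its log2 fold changes with LPS were 0.34 ± 0.32 (SE), -0.42 ± 0.32 and 0.50 ± 0.32 (edgeR adjusted p = 0.607, 0.730 and 0.763). For atp5mf, the f subunit, they were 0.41 ± 0.23, 0.03 ± 0.23 and 0.47 ± 0.23 (edgeR adjusted p = 0.367, 0.982 and 0.681). At 32 °C the values without the 3 libraries were 0.114 for atp5mc1 and 0.213 for atp5mf, and with the replicate block that of atp5mf was 0.78. The gene with the fewest counts of the class, atp5mea, was at 14.4 to 63.3 CPM and differed by 0.18 ± 0.32 (SE) at 24 °C.

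ATP5IF1 stops the synthase from running backwards and hydrolysing ATP when the gradient fails, and zebrafish has 2 copies of it. Both copies had fold changes above 0 at every temperature, with class medians of 0.48, 0.05 and 0.39, but at 28 °C that of atp5if1b turned to -0.162 with total-count scaling and to -0.0752 without 28 °C control replicate 2. For atp5if1a the log2 fold changes were 0.58 ± 0.31 (SE), 0.02 ± 0.31 and 0.46 ± 0.31 (edgeR adjusted p = 0.334, 0.991 and 0.769). For atp5if1b they were 0.38 ± 0.21, 0.08 ± 0.21 and 0.32 ± 0.21 (edgeR adjusted p = 0.361, 0.942 and 0.769). The 32 °C values without the 3 libraries were 0.0905 for atp5if1a and 0.206 for atp5if1b.

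**Figure D3:**
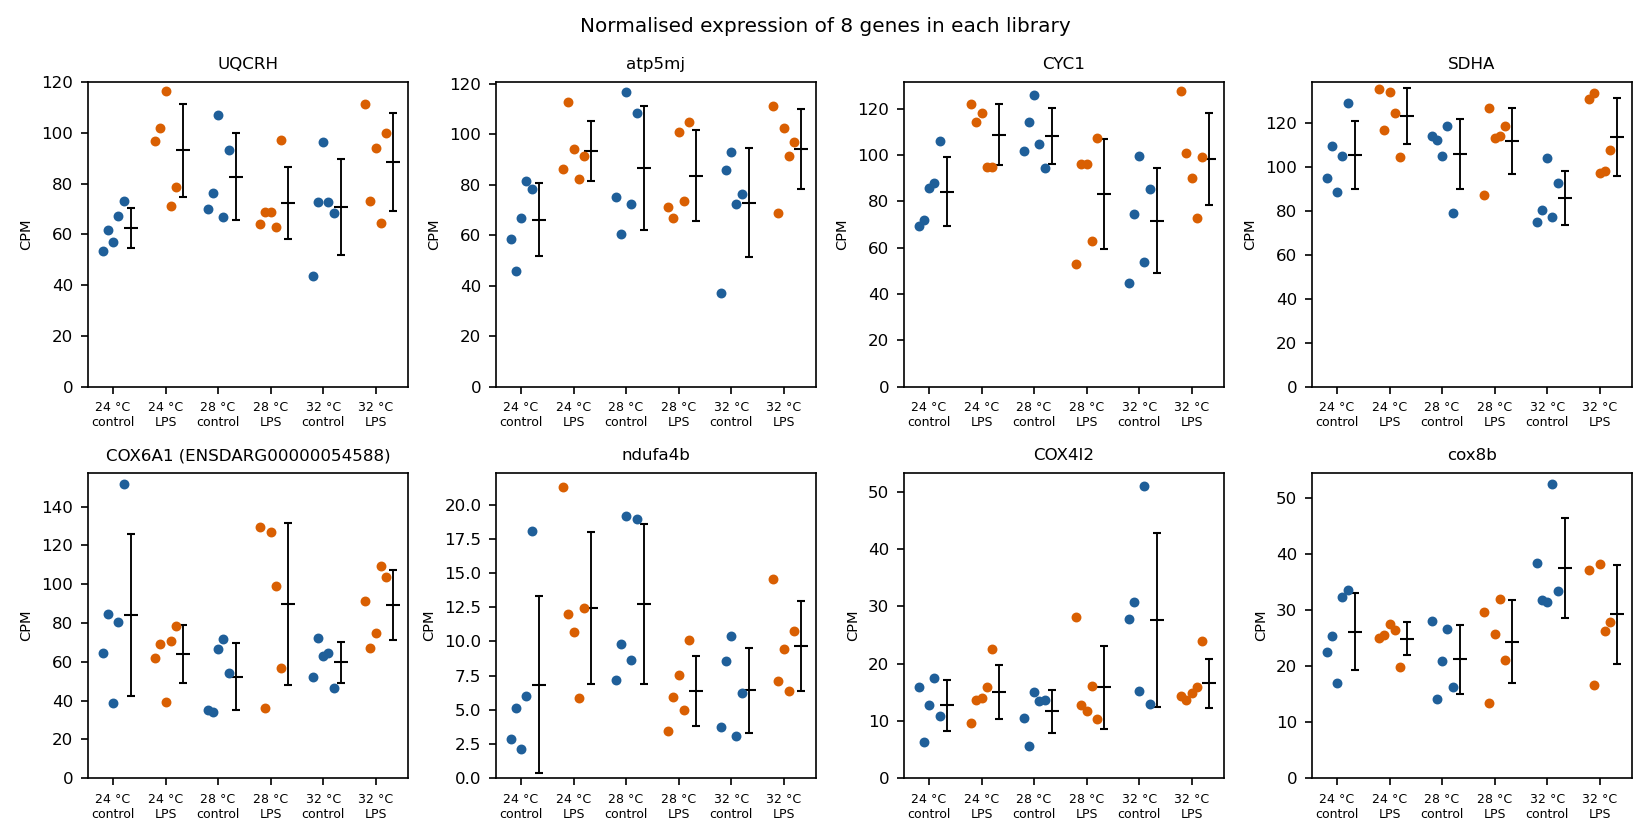
CPM of 8 genes in each library, with 1 dot per library, blue for control and orange for LPS, and a black mark with bars for the mean and SD of 5 libraries; axes start at 0. The 24 °C groups of atp5mj do not overlap, 24 °C control replicate 8 stands out for ndufa4b at 18.1 CPM, and 32 °C control replicate 8 stands out for COX4I2 at 51.0 CPM.

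A second comparison asked whether the LPS response depended on incubation temperature. Responses at 24 °C exceeded those at 28 °C for 84 of the 101 genes, with a median difference of 0.27 against -0.143 for all genes. Without the 3 libraries that stood apart the OXPHOS median difference was 0.255. No gene of the set was called (0 of 101, beside 134 over all genes or 0.751%), and 9 differences were above 0 and 2 below at an unadjusted p under 0.05, where 21.1% of all genes passed. The 134 became 3 without 28 °C LPS replicate 1, 446 without 28 °C LPS replicate 2 and 92 without the 3 libraries that stood apart. Responses at 32 °C exceeded those at 28 °C for 90 genes, with a median of 0.29, 0 called (20 over all genes, 0.112%) and 7 above and 1 below 0 at an unadjusted p under 0.05, beside 10.1% of all genes. Without the 3 libraries that median was 0.148.

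Between 32 and 24 °C the median difference was 0.05, with 61 genes above 0. The count called was 0 (4 over all genes, 0.0224%) and 1 passed an unadjusted p under 0.05, beside 9.9% of all genes. Without the 3 libraries the median turned to -0.13, and with total-count scaling to -0.15. These 3 comparisons share libraries with each other and with the LPS contrasts above.

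The joint test of any difference among the 3 responses called 0 of the 101 genes (65 over all genes, 0.364%), with 8 at an unadjusted p under 0.05, or 7.92% beside 17.1% of all genes. CYC1 had the smallest p (edgeR adjusted p = 0.190), followed by NDUFA10 and ndufa4b. The others were UQCRH, COX6A1 (ENSDARG00000054588), UQCRFS1, cox6b1 and COX4I2. CYC1 responses differed by 0.75 ± 0.28 (SE) between 24 and 28 °C and by 0.83 ± 0.28 between 32 and 28 °C (edgeR adjusted p = 0.136 and 0.298).

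The third comparison set incubation temperatures against each other within control fish and within LPS fish. These contrasts use the same control and LPS libraries as those above. In controls, 24 °C fish had a median log2 fold change of -0.17 against 28 °C fish, with 20 of the 101 genes above 0. The median of all genes was 0.109. Without the 3 libraries that stood apart the OXPHOS median was -0.143. None of the 101 was called (440 over all genes, 2.47%), and 1 gene was higher and 3 lower at an unadjusted p under 0.05. Over all genes 19.9% passed, 12.8% higher and 7.11% lower. The 440 became 7 without the 3 libraries that stood apart, 5 without 28 °C control replicate 7 and 753 without 24 °C control replicate 8. The lower 3 were atp5md, cox8a and UQCRH, and the higher one was COX6A1 (ENSDARG00000054588) at 0.68 ± 0.31 (SE; edgeR adjusted p = 0.220). Without 24 °C control replicate 8, ndufa4b was called lower at 24 than at 28 °C, by -1.66 (edgeR adjusted p = 0.0284), against -0.90 ± 0.46 with all libraries.

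Controls of 32 °C had a median of -0.195 against those of 28 °C, with 19 of 101 genes above 0, where the median of all genes was 0.0332. Of the 101, 13 were lower and 2 higher at an unadjusted p under 0.05. Over all genes 14.4% passed, 6.27% lower and 8.17% higher. The edgeR test called 0 of them (113 over all genes, 0.633%, and 2 without the 3 libraries), limma voom 0 and DESeq2 2 (625 over all genes). Leaving out the 3 libraries that stood apart gave a median of -0.0375 and 43 genes were above 0. With all 30 libraries, complex III had the lowest class median, -0.406, with 0 of 9 genes above 0. Of these 9, 5 were lower at an unadjusted p under 0.05, beside 6.27% of all genes. Without the 3 libraries, the complex III genes ran from -0.321 for CYC1 to 0.205 for UQCRB. CYC1 differed by -0.59 ± 0.20 (SE; edgeR adjusted p = 0.145), and without the 3 libraries by -0.321 (adjusted p = 0.645).

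The 2 genes that were higher in 32 °C controls were both complex IV isoforms. COX4I2 was at 10.5, 5.69, 15.1, 13.6 and 13.6 CPM in 28 °C controls, while in 32 °C controls, given above, replicates 2, 3 and 8 were at 27.75, 30.8 and 51.0. The groups overlapped through 32 °C replicate 10, at 13.05. The log2 fold change was 1.24 ± 0.34 (SE; edgeR adjusted p = 0.0730). It was 1.23 with DESeq2 (adjusted p = 0.0172), 1.32 without 32 °C control replicate 6 (edgeR adjusted p = 0.0376), 1.42 without 32 °C control replicate 10 (edgeR adjusted p = 0.0464) and 0.756 without the 3 libraries (edgeR adjusted p = 0.503).

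The gene cox8b, in rodents the heart and muscle isoform of subunit 8, was at 28.1, 14.2, 20.9, 26.7 and 16.3 CPM in 28 °C controls and at 38.4, 31.8, 31.4, 52.6 and 33.5 in 32 °C controls. All 32 °C controls were above all 28 °C controls, which held for 1 of the 101 genes in this direction and 1.63% of all genes. The log2 fold change was 0.82 ± 0.24 (SE; edgeR adjusted p = 0.0920), and 0.806 with DESeq2 (adjusted p = 0.0390). Without the 3 libraries that stood apart it was 0.602 (edgeR adjusted p = 0.446). Among those 3 were 32 °C control replicates 2 and 8, the highest of their group at 38.4 and 52.6 CPM. Skeletal muscle markers, 17 in all of which 7 were tested, summed to 10.6 to 179 CPM in 28 °C controls and 9.63 to 295 in 32 °C controls, highest in replicate 8. Leaving out 32 °C control replicate 6 raised the number called of the 101 to 5, and over all genes from 113 to 506. The 5 were COX4I2, and lower at 32 °C, CYC1 (-0.811, edgeR adjusted p = 0.0469), UQCRFS1 (-0.77, 0.0418), NDUFA10 (-0.663, 0.0336) and SDHD (ENSDARG00000030139) (-0.686, 0.0417). Without the 3 libraries that stood apart, UQCRFS1 had -0.246, NDUFA10 -0.299 and this SDHD -0.276 (edgeR adjusted p = 0.72, 0.557 and 0.668).

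Between 32 and 24 °C controls the median was -0.01, with 47 genes above 0, 0 called (4 over all genes, 0.0224%), and 3 higher and 4 lower at an unadjusted p under 0.05, beside 15.7% of all genes. With those 3 left out it was 0.126. In LPS fish the medians were 0.10 for 24 against 28 °C, 0.13 for 32 against 28 °C and -0.00013 for 32 against 24 °C. No gene of any kind was called in these 3 contrasts (0%) by edgeR, and 3, 0 and 0 of the 101 passed an unadjusted p under 0.05, beside 8.93%, 4.1% and 4.23% of all genes. DESeq2 and limma voom called 0 of the 101 there too, while over all genes DESeq2 called 15, 5 and 5.

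The feature common to most of these genes was co-variation between fish of the same group. After the group means were removed, the Pearson correlation of each gene with the mean of the other OXPHOS genes over 30 libraries had a median of 0.804, and 81 of 101 were above 0.5. Among the 17740 other tested genes the median correlation with the OXPHOS mean was -0.0196 and 8.66% were above 0.5. These values are a description, since all genes share libraries, depth and scaling. The other genes were not matched to the OXPHOS genes for expression level, and the part of expression level in this difference was not tested. Medians were 0.864 for complex IV, 0.839 for complex V, 0.831 for complex I, 0.704 for complex III and 0.698 for complex II. The NDUFAF assembly factors had 0.336.

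The strongest members were cox7b at 0.977, UQCRQ at 0.968, ATP5MG at 0.962 and NDUFS5 at 0.952, of complexes IV, III, V and I. Lower values included those of SDHA at 0.32, ATP5F1A at 0.381, UQCRC1 at 0.425 and ATP5F1B at 0.528. Correlations below 0 were found for ndufa9b (-0.356), COX5B (ENSDARG00000113254) (-0.302), cox7a1 (-0.237), NDUFA4L2 (-0.0688) and COX4I2 (-0.0646). Of these, ndufa9b, this COX5B and NDUFA4L2 had means under 1 CPM. The median without the 3 libraries that stood apart was 0.803.

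**Figure D4:**
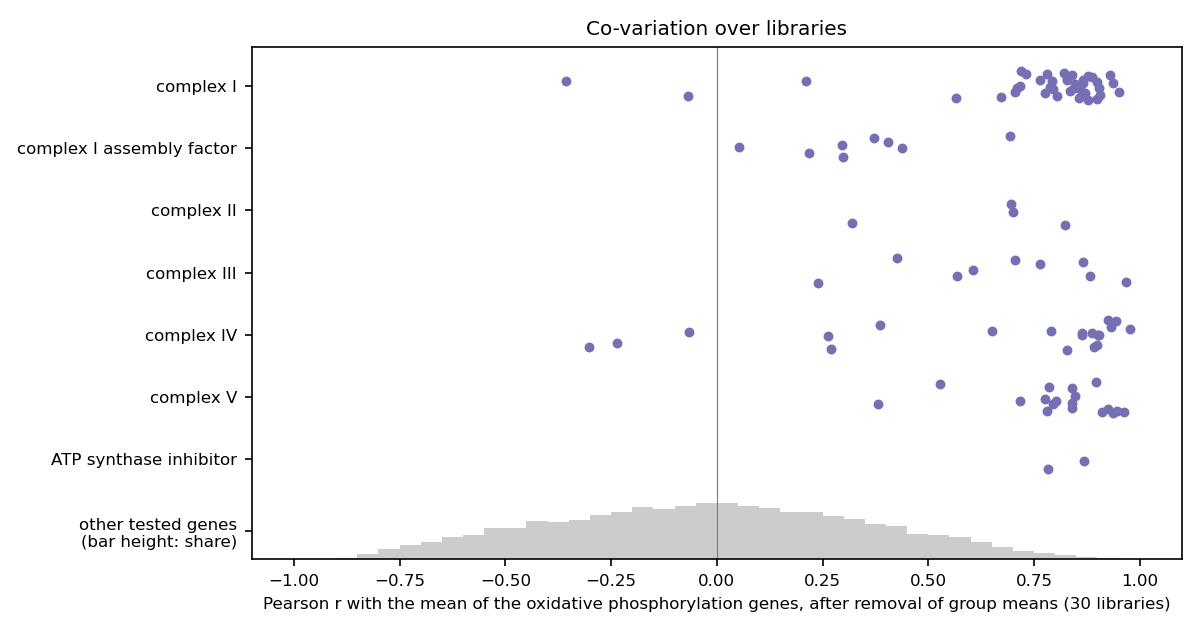
Correlation of each gene with the mean of the other OXPHOS genes over 30 libraries after removal of group means, 1 dot per gene by class, above the distribution of the 17740 other tested genes (bar height shows their relative number). Most complex I, IV and V genes lie above 0.5, with medians of 0.831, 0.864 and 0.839, while the NDUFAF assembly factors have a median of 0.336.

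Extremes were also counted library by library. Of the 101 genes, 66 had their lowest value in 32 °C control replicate 2, which is among the 3 libraries that stood apart. The highest value of 27 was in 32 °C LPS replicate 1. A further 14 were highest in 24 °C control replicate 8 and 11 in 28 °C control replicate 3, so high libraries occurred among controls and LPS fish. The share of all tested genes with extremes in these libraries was not counted. Of 91 genes with a mean of at least 5 CPM, 66 (72.5%) varied less than 3-fold from the lowest to the highest library. The share was 40.6% among 11137 other genes with such a mean, which were not matched for expression level, and the part of level was not tested. Among the OXPHOS genes NDUFB5 varied least, from 29.5 to 52.4 CPM, and SDHA ran from 75.0 to 135.

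**Figure D5:**
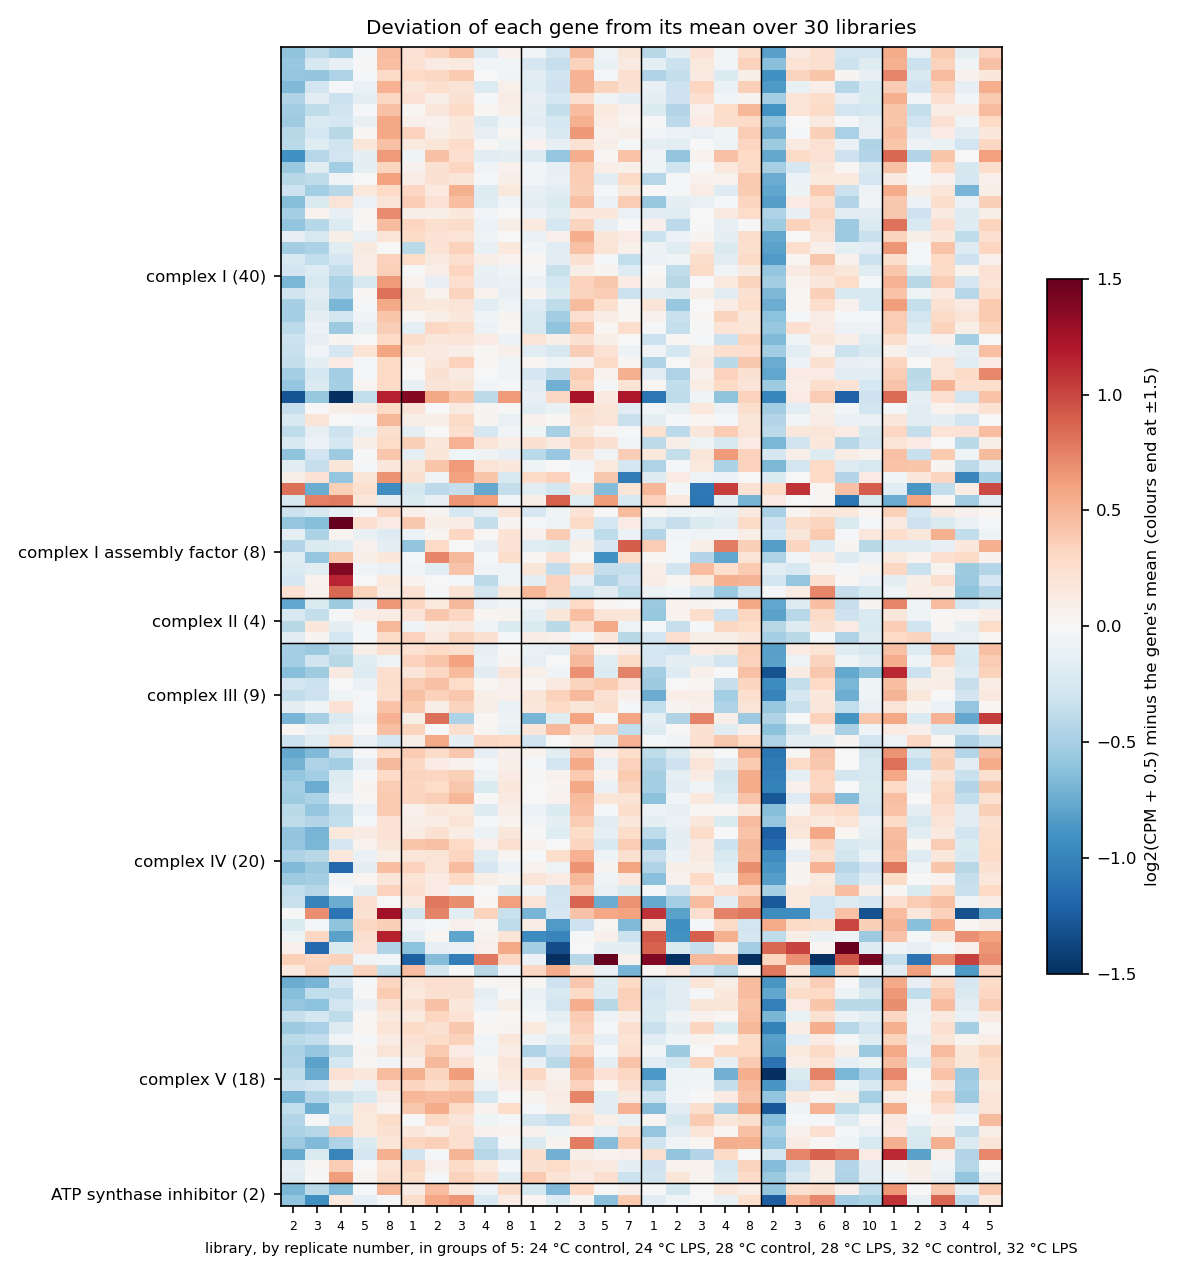
Deviation of each of the 101 tested genes (rows, grouped by complex and ordered by co-variation) from its own mean over 30 libraries (columns, in 6 groups of 5), on a log2 scale after 0.5 CPM was added, red above and blue below. Many genes share a colour within a column. Low values mark 32 °C control replicate 2, with the lowest value of 66 genes, a library that stood apart in its number of genes with counts. High values mark 32 °C LPS replicate 1, with the highest of 27.

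Paralogs of the same subunit were compared through their log2 ratio in each library. The level of a ratio depends on transcript lengths, so only its variation is described. The ratio of cox7a1 to COX7A2 (ENSDARG00000053217) varied most, with an SD of 1.33 over 30 libraries, from -5.04 in 28 °C LPS replicate 2 to -0.62 in 28 °C LPS replicate 1. Its extremes lay in 1 group, and its group means ran from -3.37 in 24 °C LPS fish to -1.94 in 32 °C controls. The next were NDUFA4L2 over NDUFA4, ndufa9b over NDUFA9, with an SD of 1.16, and COX5B (ENSDARG00000113254) over COX5B (ENSDARG00000015978); each first member had a mean under 1 CPM.

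COX5B (ENSDARG00000068738) over COX5B (ENSDARG00000015978) had an SD of 0.761, and ndufa4b over NDUFA4 0.693, with group means of -4.65 in 24 °C controls, -3.68 in 24 °C LPS fish, -3.77 in 28 °C controls and -4.64 in 28 °C LPS fish. The SDs were 0.687 for the pair of cox6a1 genes, 0.666 for cox8b over cox8a and 0.659 for COX4I2 over COX4I1. The last was highest on average in 32 °C controls (-3.05) and lowest in 28 °C controls (-4.26). COX5A over cox5aa held the tightest ratio, with an SD of 0.176. Reads shared by near-identical copies may have been assigned to either, so these separate values are uncertain.

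Other mitochondrial and metabolic lists were set beside the OXPHOS genes. The 13 protein-coding genes of mitochondrial DNA had medians with LPS of 0.285 at 24 °C (13 of 13 above 0), 0.0255 at 28 °C (7 of 13) and 0.613 at 32 °C (13 of 13), with 0 called. Of these, 6 were higher at 32 °C at an unadjusted p under 0.05, where 2.69% of all genes were higher. Among the 6 was mt-atp8 at 0.89 ± 0.32 (SE; edgeR adjusted p = 0.541), which had 0.56 without the 3 libraries that stood apart. The 75 mitochondrial ribosomal proteins had medians of 0.05, -0.09 and 0.19, and the 43 assembly factors of other names 0.04, 0.05 and 0.21. Citric acid cycle and pyruvate dehydrogenase genes (19) had 0.19, -0.21 and 0.17, and glycolysis genes (25) had 0.24, -0.355 and 0.19. None of these lists had a gene called in the LPS contrasts. The medians of all tested genes were -0.115, 0.0167 and -0.0237 at 24, 28 and 32 °C. List medians without the 3 libraries that stood apart are not given here. At 32 °C, leaving them out moved the ribosomal protein genes MRPS25 from 0.443 to 0.348, MRPL28 from 0.478 to 0.184 and MRPL43 from 0.0396 to -0.154.

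Single genes of these lists, chosen by smallest p, follow. SUCLG1, a subunit of succinyl-CoA ligase, differed with LPS by 0.79 ± 0.25 (SE) at 24 °C, -0.25 ± 0.25 at 28 °C and 0.21 ± 0.25 at 32 °C (edgeR adjusted p = 0.121, 0.791 and 0.893). The electron carrier cycsb, a cytochrome c gene, differed by 0.86 ± 0.38, -0.70 ± 0.38 and 0.76 ± 0.38 (edgeR adjusted p = 0.253, 0.642 and 0.686). Its means were 113 ± 35.6 CPM (SD, n = 5) in 24 °C controls and 205 ± 50.9 in 24 °C LPS fish, 203 ± 49.7 and 125 ± 58.9 at 28 °C, and 108 ± 73.8 and 183 ± 64.1 at 32 °C. The coactivator gene ppargc1b, a regulator of mitochondrial biogenesis, differed by 0.99 ± 0.26, -0.48 ± 0.26 and 0.21 ± 0.26 (edgeR adjusted p = 0.0830, 0.642 and 0.896). In the same list, pprc1 and POLRMT had values below 0 at 24 °C, at -1.43 ± 0.59 and -0.68 ± 0.33 (edgeR adjusted p = 0.225 and 0.296). Without the 3 libraries that stood apart, the 24 °C values were 0.544 for pprc1, -0.456 for POLRMT and 0.9 for ppargc1b. The 32 °C values without the 3 libraries were -0.0732 for SUCLG1, 0.305 for cycsb and -0.103 for ppargc1b.

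SUCLA2, another succinyl-CoA ligase subunit, and DLAT, of pyruvate dehydrogenase, had -0.65 ± 0.24 (SE) and -0.46 ± 0.18 with LPS at 28 °C (edgeR adjusted p = 0.453 and 0.502). Among glycolysis genes, TPI1 (ENSDARG00000025012) had -4.49 ± 1.06 and GAPDH -3.01 ± 1.01 at 24 °C (edgeR adjusted p = 0.0583 and 0.140), and pgam1a 0.63 ± 0.25 (edgeR adjusted p = 0.212). Both rest on 24 °C control replicate 4, the library with ovary transcripts, where TPI1 (ENSDARG00000025012) was at 39.8 CPM against 0.363 to 0.688 in the other 4 controls, and GAPDH at 743 against 6.89 to 34.6. Without that library their log2 fold changes were -0.395 and 0.0724 (edgeR adjusted p = 0.832 and 0.977).

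Over fish, with group means removed, the mean of the mitochondrial ribosomal protein genes correlated with the OXPHOS mean at r = 0.829 (rho = 0.863; 0.913 without the 2 libraries farthest from its median). The values were 0.83 for the citric acid cycle list (rho = 0.743; 0.752 without 2), 0.643 for glycolysis (rho = 0.649; 0.558) and 0.558 for the genes of mitochondrial DNA (rho = 0.607; 0.578). The 43 assembly factors of other names had 0.798 (rho = 0.818; 0.898), and the median over their single genes was 0.452. Neutrophil markers had 0.346 (rho = 0.335; 0.263), macrophage markers 0.246 (rho = 0.303; 0.269), erythroid markers -0.289 (rho = -0.254; -0.207), skeletal muscle markers -0.596 (rho = -0.503; -0.417) and acinar markers 0.269 (rho = 0.221; 0.321). Mitochondrial biogenesis regulators had -0.0601 (rho = -0.0656, and 0.116 without 2), and cytochrome c and other electron donors 0.246 (rho = 0.111, and 0.264). Correlations of list means are another measure than those of single OXPHOS genes, whose median was 0.804. Over single genes the medians were 0.619 for mitochondrial ribosomal proteins and 0.557 for the genes of mitochondrial DNA. They were 0.481 for the citric acid cycle list, 0.31 for glycolysis, 0.118 for biogenesis regulators and -0.151 for cytochrome c and other electron donors. All these values are descriptions over 30 libraries that share scaling and depth.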

How the data were processed

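Per the labels' protocols, libraries were made from oligo(dT)-selected RNA with a strand-marking kit. The authors deposited raw counts, whole numbers for 31901 Ensembl genes in 30 libraries; 29178 IDs matched a symbol in a table of names. The submitters' processing notes name bcl2fastq, cutadapt 1.12, FastQC 0.11.5, STAR, DESeq2 1.11.1 and build GRCz11. How reads were assigned to genes, with which annotation and strand setting, is not given in the sources used here.

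In R 4.3.3, edgeR 4.0.16 filtered genes (filterByExpr), scaled libraries (TMM) and fitted 1 robust quasi-likelihood model of all 30 libraries with 6 group means (24 residual degrees of freedom, common biological coefficient of variation 0.503). P values were Benjamini-Hochberg adjusted over 17841 genes with a threshold of 0.05. An SE is the size of a log2 fold change over the square root of its F statistic. CPM use TMM-scaled totals, log2 CPM add a prior count of 2, and marker sums use plain totals. Values within a group follow the labels' replicate numbers. Libraries of 1 group were compared by chi-square over 60 pairs; the smallest statistic, 31.7 per degree of freedom, was far above sampling noise. The test was checked on simulated data.

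Members and lists were chosen with earlier results of these data known. Genes were described in full if, within a class, they had the smallest p in an LPS contrast or the joint test, or the highest or lowest mean CPM, or were among the 6 with the largest ratio of highest to lowest library at a mean of at least 5 CPM. Paralog pairs, with a count of 1 added, were described by the spread of their ratio, and other lists by up to 3 genes of smallest p. Other genes were named after their values were seen. As alternatives, the tests were repeated with DESeq2 1.42.0 and limma 3.58.1 voom, under other scalings and filters, on the compared groups alone, without single libraries or without the 3 that stood apart, and with replicate numbers as a blocking factor.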

Additional observations from a re-analysis of the deposited data

Results flagged for a closer look

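In groups of 5, a library was looked at again where its gap to the nearest other value was large for the range of the group. Of 228 groups examined, 11 met this, and chance flags about 1 in 20 groups. The highest value stood apart for ndufa4b at 18.1 CPM in 24 °C control replicate 8 (the others 2.16 to 5.98), for NDUFA4 at 231 CPM in the same library (92.6 to 127), and for NDUFAF6 at 6.99 CPM (2.36 to 3.28) and NDUFAF7 at 4.79 CPM (2.54 to 3.18) in 24 °C control replicate 4. It did so for NDUFAF3 at 50.4 CPM in 28 °C control replicate 7 (22.3 to 28.4), for atp5md at 89.9 CPM in 28 °C control replicate 3 (48.0 to 59.0), for UQCRH at 97.4 CPM in 28 °C LPS replicate 8 (63.1 to 68.9) and for COX4I2 at 24.0 CPM in 32 °C LPS replicate 5 (13.7 to 16.0). The lowest value stood apart for atp5mea at 17.4 CPM in 28 °C control replicate 2 (30.0 to 35.0). The mean log2 CPM of the assembly factors was low at 2.25 in 28 °C control replicate 5 (2.67 to 2.72) and high at 2.86 in 28 °C LPS replicate 8 (2.53 to 2.62).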

How the results depend on the processing

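Scaling by total counts in place of TMM moved the median log2 fold change of the OXPHOS genes at 28 °C with LPS to -0.309, that of the 24 against 28 °C response difference to 0.584 and that of 24 against 28 °C LPS fish to 0.354; it moved the median of all genes in the first of these to -0.238, and relative to all genes the OXPHOS median was -0.0717 there, against -0.0697 with TMM. The value of atp5if1b at 28 °C turned to -0.162 under that scaling and ran from -0.0752 to 0.151 over the fits that left out 1 library; the cause was not tested. Counts of called genes were 0 under the other alternatives, except in 32 against 28 °C controls, where DESeq2 gave 2 and the replicate block 6, and with 1 library left out, where they ran from 0 to 5 there and from 0 to 1 for LPS at 24 °C, for the 24 against 28 °C response difference and for 24 against 28 °C controls. The one gene called at 24 °C was ndufa4b, without 24 °C control replicate 8. The 5 came without 32 °C control replicate 6, where calls over all genes rose as well, as given above. Calls over all genes under the replicate block are not given here. Its 6 therefore cannot be read as particular to the OXPHOS genes. Leave-one-out medians ran from 0.161 to 0.359 for LPS at 24 °C, from -0.142 to -0.00809 at 28 °C and from 0.159 to 0.414 at 32 °C, and from -0.372 to -0.0853 for 32 against 28 °C controls. The 32 °C extremes came without 32 °C control replicates 2 (0.159 and -0.0853) and 6 (0.414 and -0.372), the 24 °C maximum without 24 °C control replicate 8, and the 28 °C extremes without 28 °C control replicate 2 and LPS replicate 1. They ran from 0.218 to 0.431 for the 24 against 28 °C response difference, from 0.179 to 0.475 for 32 against 28 °C, and from -0.293 to -0.0969 for 24 against 28 °C controls.

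The replicate numbers were not taken to pair the samples: of 51 same-numbered pairs of libraries, 17 had correlated deviations over 0.1, and of 9 control and LPS pairs of a temperature 3 did (from -0.139 to 0.441). The fit with the replicate block called COX4I2 (1.82), CYC1 (-1.02), UQCRFS1 (-0.925), UQCRC1 (-0.793), SDHD (ENSDARG00000030139, -0.788) and NDUFA10 (-0.721) in 32 against 28 °C controls, and 0 elsewhere. Replicate numbers 6 and 10 occur only among 32 °C controls and 7 only among 28 °C controls, so the block fits these libraries exactly. The 32 °C control mean then rests on replicates 2, 3 and 8, of which 2 and 8 are among the libraries that stood apart. Over all genes, DESeq2 called 274, 69 and 17 with LPS at 24, 28 and 32 °C, where edgeR called 3, 2 and 1, 815 against 134 and 146 against 20 for the response differences of 24 and 32 °C from 28 °C, and 890 against 440 and 625 against 113 for 24 and 32 °C controls against 28 °C. Depth limits the rows under about 1 CPM. The SE of single genes limits the rest.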
